A study of Mus musculus with 12 samples.

Results

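The 10 genes described here belong to bone morphogenetic protein (BMP) signalling, which is associated with quiescence of hair follicle stem cells (HFSCs). They are the ligands Bmp2, Bmp4 and Bmp6, the type I receptor Bmpr1a, the secreted antagonist Grem1, the inhibitory Smad Smad6 and the target genes Id1, Id2, Id3 and Id4. They were matched by gene symbol in both tables of the series, and all 10 were found among the 17885 genes of the Eed iKO table and the 21915 genes of the hair cycle table, which together list 21942 genes.

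RNA-seq was performed on HFSCs sorted from the back skin of C57BL/6J mice, with 3 libraries per group. The anagen group (postnatal day 28 to 30, follicles in growth) and the telogen group (postnatal day 50 to 52, follicles at rest) were wild type. The control group is labelled wildtype and the Eed iKO group Eed -/-, both at postnatal day 70. In the Eed iKO mice, K15-CrePGR, a Cre recombinase fused to a progesterone receptor and driven by a keratin 15 promoter, acts on Eed flox/flox after RU-486 is put on the skin, here once per day for 7 days from postnatal day 50. Eed encodes a core subunit of Polycomb repressive complex 2 (PRC2), which deposits the repressive histone mark H3K27me3. Recombination is limited to cells in which the promoter is active, and the controls were given the ethanol vehicle alone, so that RU-486 itself cannot be told apart from loss of Eed. Whether the controls carried any of these alleles is not given in the sources used here. All cells were sorted by flow cytometry as CD34+ and EpCAM+ cells with high α6-integrin and no Sca1, so the gate itself used CD34. The study describes its Eed iKO and control replicates as biological replicates, and for the hair cycle it names more mice than libraries, so that a library may hold pooled mice.

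BMP ligands bind type I and type II receptors that phosphorylate Smad1, Smad5 and Smad9, which enter the nucleus with Smad4 and drive target genes such as the ID genes. ID proteins lack a DNA-binding domain and pair with E proteins, which keeps these from binding DNA. In the hair follicle, BMP from the bulge, its inner layer, the dermis and the fat is known to hold stem cells at rest, and secreted antagonists such as noggin and gremlin lower it around the onset of growth.

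Values, called normalized counts here, are taken as gene counts divided by a DESeq2 size factor for each library. In the Eed iKO table, 100% of values were whole multiples of a library's own step, as whole counts divided by 1 factor would be. In the hair cycle table only 9.55% to 17.8% were, so whether 1 factor per library was used there is not settled. The 2 tables were normalized separately, so levels are compared only within a table. Totals per library were 33269583 to 57063586 reads in the Eed iKO table, while for the hair cycle table the depth is unknown and normalized counts sum to 11370984 to 13186648. Eed itself had 1084, 1249 and 950.2 normalized counts in the controls and 933, 1361 and 1002 in the libraries labelled Eed iKO (log2 fold change -0.01, SE 0.22, limma adjusted p = 0.993). Its groups overlapped, and a gene value pools all exons, so it does not show whether floxed exons were lost. The study itself reports lower Eed mRNA by RT-qPCR in its sorted Eed iKO HFSCs. It also reports reduced H3K27me3 in these cells by immunofluorescence. All 8 bulge markers (Cd34, Itga6, Epcam, Krt15, Sox9, Lhx2, Tcf7l1, Lgr5) were detected in every group. Telogen replicate 1 stood apart for Krt15, with 142406 normalized counts against 344674 to 422433 in the other hair cycle libraries, and both members called between the stages were also called without it. In bulk RNA, fewer cells of a type cannot be told apart from less RNA per cell.

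Grem1 and Id4 were the 2 members that differed between hair cycle stages, and the 250 bases before their RefSeq start sites (GRCm38.p6) are printed for that reason, in lower case, with GGCGCC, a GC-rich sequence known to bind BMP-activated Smads, in capitals. The windows, from 250 bases before to 50 after each start, are chr13:48260866-48261165 (plus strand) for Id4 and chr2:113758599-113758898 (minus strand) for Grem1. The genes span chr13:48261228-48266026 and chr2:113746164-113758646 in GENCODE vM21 (GRCm38).
Id4: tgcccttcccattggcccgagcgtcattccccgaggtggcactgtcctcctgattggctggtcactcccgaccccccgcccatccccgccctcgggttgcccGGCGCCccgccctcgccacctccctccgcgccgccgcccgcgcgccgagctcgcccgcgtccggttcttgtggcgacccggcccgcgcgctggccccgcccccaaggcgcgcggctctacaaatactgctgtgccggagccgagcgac
Grem1: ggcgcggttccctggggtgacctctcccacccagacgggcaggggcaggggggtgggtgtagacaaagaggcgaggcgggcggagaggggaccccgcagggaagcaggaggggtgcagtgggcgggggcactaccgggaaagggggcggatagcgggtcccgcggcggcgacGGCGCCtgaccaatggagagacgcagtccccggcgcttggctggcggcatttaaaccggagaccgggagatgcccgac
GGCGCC, which is its own reverse complement and so was searched on both strands, begins at base -148 of Id4 and at base -78 of Grem1. It was found in 4 of the 8 members with a window (Id4, Grem1, Bmpr1a and Id2) and in 11.9% of all 32851 windows of the same length. The 8 windows held 60% to 79.3% G and C, against a median of 52.7% over all windows. A match here is a run of letters and not a measured binding site.

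Within each library, levels were ordered per kilobase of the longest coding transcript (GENCODE vM21). In telogen, Grem1 was the most abundant member at 4774 ± 791 normalized counts per kb (SD, n = 3), and Bmpr1a followed at 734 ± 109. Id3 (607 ± 118), Id2 (517 ± 22.5) and Id4 (480 ± 103) came next, and from Bmpr1a to Id4 each overlapped its neighbour in the order. Id1 stood at 227 ± 90.8 per kb, clear of Id4 above it and of Bmp2 below it at 77.6 ± 7.38. Bmp6 (56.3 ± 23.9) overlapped Bmp2, and Bmp4 (6.94 ± 4.31) overlapped Smad6 (6.31 ± 6.13) at the bottom of the order. In anagen, Grem1 was again the highest member at 2419 ± 629 per kb, then Bmpr1a at 1078 ± 60.9 and Id4 at 926 ± 195. Id4 overlapped Bmpr1a above it and Id3 below it (899 ± 283). Id2 (496 ± 29.4) stood apart from Id3 above and Id1 below (135, from 121 to 144), Id1 overlapped Bmp6 (130.4 ± 47.7), and Bmp2 (74.0 ± 12.2), Bmp4 (7.09 ± 3.36) and Smad6 (5.69 ± 3.42) followed, the last pair overlapping.

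The order in the control group began with Grem1 at 10704 ± 442 normalized counts per kb and Id3 at 6367 ± 2464, which did not overlap. Id2 (3256 ± 804) and Id1 (2825 ± 990.3) overlapped, Id1 overlapped Bmpr1a (1826 ± 302), and Id4 (973 ± 99.9) overlapped Bmp2 (858 ± 183). Smad6 (160.1 ± 54.2), Bmp6 (65.4 ± 25.4) and Bmp4 (22.3 ± 17.3) closed the order without overlap. In the Eed iKO group Id3 (10383 ± 4463) and Grem1 (9835 ± 1167) overlapped at the top, and Id1 (6186 ± 1992) overlapped Id2 (4761 ± 291) below them. Bmpr1a (1566 ± 228) stood apart from both Id2 and Id4 (901 ± 116), Id4 overlapped Bmp2 (737 ± 104), and Smad6 (188 ± 36.8), Bmp6 (93.6 ± 16.6) and Bmp4 (31.9 ± 14.1) again closed the order without overlap.

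The comparison of anagen with telogen asks which genes differ between active and quiescent HFSCs. Of the 10 members, Id4 was higher and Grem1 lower in anagen, each by close to a factor of 2 (limma, adjusted p under 0.05 over all 13457 genes tested). The other 8 members did not pass. Over all genes tested, 11.6% passed, 7.22% higher and 4.35% lower in anagen. All 10 members passed the filter on low values. The median log2 fold change of the 10 was 0.07, beside 0.01 over all genes, and 6 values were positive and 4 negative. At an unadjusted p under 0.05, 4 members passed (3 higher and 1 lower), beside 27.3% of all genes, 15.1% being higher and 12.2% lower. No member met the thresholds of the study's methods (log2 fold change beyond 2 and unadjusted p under 0.05), which 5.1% of genes met.

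**Figure D1:**
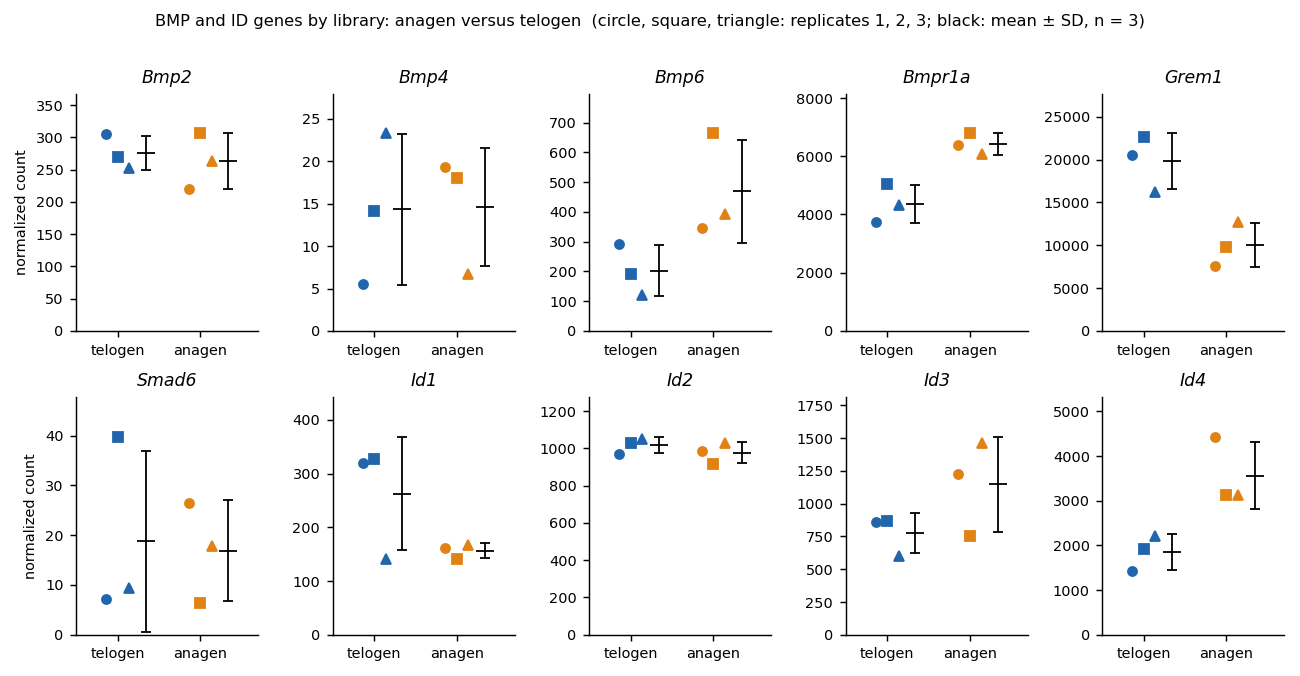
Normalized counts (y axis, linear from 0) of the 10 members in each telogen (blue) and anagen (orange) library, with the mean ± SD of 3 libraries in black. The telogen and anagen points of Grem1, Id4, Bmp6 and Bmpr1a do not overlap, and those of the other 6 members do.

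Among the ligands, Bmp6, which in the bulge is known as a ligand of the inner niche layer, had 293, 192 and 122 normalized counts in the telogen libraries. In anagen it had 347, 665 and 394. Every anagen library was above every telogen library, and anagen replicate 2 stood highest. The log2 fold change was 1.24 (SE 0.38, 95% confidence interval 0.41 to 2.07), a fold of 2.36 (1.33 to 4.19), and it did not pass (limma adjusted p = 0.0566). Without telogen replicate 1 the value was 1.55 and passed (limma adjusted p = 0.0198).

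Bmp2, which the fat and the hair follicle epithelium are known to make, had 305, 270.1 and 253 normalized counts at telogen against 219.9, 307 and 263 in anagen. The groups overlapped throughout, with a log2 fold change of -0.08 (95% interval -0.69 to 0.53, limma adjusted p = 0.883). Bmp4, known as a ligand of the dermal papilla, had 5.52, 14.1 and 23.3 normalized counts at telogen against 19.3, 18.0 and 6.65 in anagen. The groups overlapped, and the 95% interval of its log2 fold change (0.10) ran from -1.58 to 1.78, a fold of 0.335 to 3.42.

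Bmpr1a, the type I receptor through which BMP signals reach bulge cells, had 3745, 5047 and 4325 normalized counts in telogen. It had 6398, 6795 and 6071 in anagen, and the groups did not overlap. The log2 fold change was 0.56 (SE 0.18, 95% interval 0.17 to 0.96) and did not pass (limma adjusted p = 0.0650), although without telogen replicate 2 it was 0.67 and passed (limma adjusted p = 0.0411). Libraries did not overlap for 4 of 10 members, beside 33.3% of all genes tested. Of these 4, Bmp6, Bmpr1a and Id4 were higher in anagen, as were 18.1% of all genes, and Grem1 was lower, as were 15.2%.

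Grem1 encodes gremlin 1, a secreted protein that binds BMP2, BMP4 and BMP7 and keeps them from their receptors. It had 20491, 22684 and 16229.8 normalized counts in the telogen libraries. In anagen it had 7550.3, 9792 and 12755. The lowest telogen library stood above the highest anagen library, and Grem1 fell by 1.00 on the log2 scale (SE 0.22, 95% interval -1.49 to -0.51, limma adjusted p = 0.0159), to 0.50 of its telogen level. The call was lost without anagen replicate 1 (-0.81, limma adjusted p = 0.0893) and without anagen replicate 2 (-1.00, limma adjusted p = 0.0654).

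Set against the 3 ligands of the list within each library, Grem1 per kb was 29.1, 40.2 and 33.6 times the sum of Bmp2, Bmp4 and Bmp6 per kb in telogen. It was 10.8, 8.43 and 16.5 times that sum in anagen, and these values did not overlap. Grem1 was itself called between the stages and Bmp6 was higher in every anagen library, so this gap is not separate evidence. The sum leaves out Bmp7, which gremlin 1 binds. Bmp7 had 29.5 to 96.6 normalized counts per kb in telogen and 54.0 to 66.1 in anagen. In the Eed iKO table the same ratio was 11.6 ± 2.28 in the control group and 11.6 ± 2.78 in the Eed iKO group (SD, n = 3), with overlapping libraries. Transcript levels were measured, not secreted protein.

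By rule, the 3 genes most like Grem1 across the 6 hair cycle libraries were named, by the root-mean-square difference of log2 values centred on each gene's mean. These were Ddx55, an RNA helicase gene (0.0566), Inf2, a formin gene (0.0897), and Tfap2b, a transcription factor gene (0.0923). Their log2 fold changes were -1.00, -0.86 and -1.03. They were picked for following Grem1, so these values carry no test here.

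Of the 4 ID genes, which encode inhibitors of E proteins and are classical BMP targets, Id4 passed and the other 3 did not. Id4 had 1421, 1920.4 and 2205 normalized counts in telogen. It had 4431, 3133 and 3124 in anagen. All anagen libraries were above all telogen libraries, with replicate 1 of anagen the highest, and Id4 rose by a log2 fold change of 0.95 (SE 0.22, 95% interval 0.46 to 1.44, limma adjusted p = 0.0213). The call was lost without anagen replicate 1 (0.78, limma adjusted p = 0.117), replicate 2 (1.03, limma adjusted p = 0.0562) or replicate 3 (1.03, limma adjusted p = 0.0502). Of the exon bases of Id4, 4.44% are shared with A330033J07Rik and Gm49291 on the opposite strand, as are 3.96% to 5.74% of those of Bmp4, Bmp6 and Bmpr1a with other opposite-strand genes, and whether counting used strand is not given in the sources used here.

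Id1 had 320.2, 327 and 141 normalized counts at telogen against 162, 141 and 167 in anagen. Telogen replicates 1 and 2 stood above all anagen libraries, but telogen replicate 3 did not, and the log2 fold change of -0.65 (SE 0.38, 95% interval -1.48 to 0.18) did not pass (limma adjusted p = 0.291). Without telogen replicate 3 the Id1 value was -1.05 and still did not pass (limma adjusted p = 0.0688). Id3 had 858, 869 and 601 normalized counts at telogen against 1226, 756 and 1465 in anagen. Anagen replicate 2 lay among the telogen libraries, and the log2 fold change was 0.53 (95% interval -0.08 to 1.14, limma adjusted p = 0.242). Telogen replicate 3, the lowest library of its group for Id1 and Id3, was also the lowest for 10 immediate early genes (Fos, Jun, Egr1 and others, a list chosen after the data were seen), whose normalized counts summed to 67855, 43093 and 15913 at telogen and to 47591 to 53173 in anagen, and its part in these values was not tested. Id2, with 967, 1031 and 1053 normalized counts at telogen against 985, 916 and 1031 in anagen, had overlapping groups and the narrowest interval of the 4 ID genes in this comparison (log2 fold change -0.06, 95% interval -0.48 to 0.37). Smad6, an inhibitory Smad that BMP is known to induce, had 7.14, 39.7 and 9.32 in telogen and 26.6, 6.29 and 17.8 in anagen, with telogen replicate 2 above and the rest interleaved (log2 fold change 0.05, 95% interval -1.77 to 1.86).

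Markers of proliferation, of melanocytes and of dermal papilla and fibroblasts differed in sum between the hair cycle groups. Sums of hair matrix, adipocyte, endothelial, immune and differentiated epidermis markers overlapped. Those of the inner bulge also overlapped, at 4158 to 6112 normalized counts in telogen and 4797 to 5015 in anagen, with 1 of 4 genes called. Summed over 4 proliferation genes (Mki67, Top2a, Ccnb1, Bub1), the telogen libraries held 594 to 787 normalized counts and the anagen libraries 15972 to 26207, and all 4 genes passed. The 4 melanocyte markers summed to 72.7 to 151 in telogen and 435 to 770.2 in anagen, with 1 of 3 tested genes called, and the 7 dermal papilla and fibroblast markers to 123 to 198 and 417 to 529, with 2 of 4 called. Among the 8 bulge markers the median log2 fold change was -0.01 and 2 were called, beside 11.6% of all genes. Of these 8, Cd34, on which the cells were sorted, fell by 1.21 on the log2 scale in anagen (SE 0.20, limma adjusted p = 0.00382). The part of these shifts in the values of Id4, Bmp6 and Grem1 was not tested.

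The wider list held 57 other genes of the BMP pathway or partners of ID proteins. All 57 were listed for the hair cycle, of which 7 were at 0 in every library and 42 passed the filter on low values. Of these 42, 2 were called higher and 2 lower in anagen, beside 11.6% of all genes. At an unadjusted p under 0.05 in limma, 9 were higher and 7 lower, beside 15.1% and 12.2% of all genes. The thresholds of the methods were met by 3 of the 42, beside 5.1% of all genes. The median log2 fold change of the 42 was 0.03, with 21 positive and 21 negative.

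**Figure D2:**
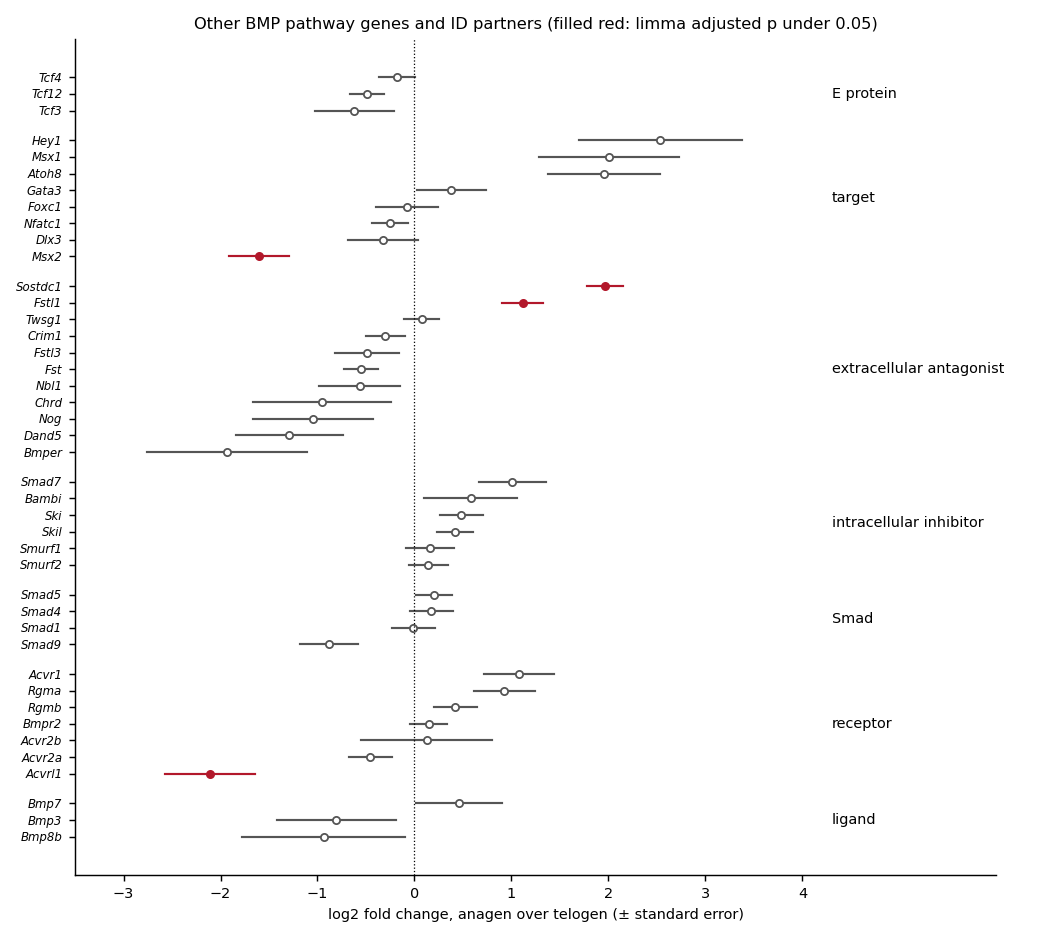
Log2 fold change of anagen over telogen (x axis) with its standard error for the 42 tested genes of the wider list, grouped by role. The 4 filled red points are the called genes: Sostdc1 and Fstl1 to the right of 0, Msx2 and Acvrl1 to the left.

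Both genes called higher were extracellular antagonists, a role that Grem1 shares. Sostdc1 encodes a secreted antagonist of BMP and Wnt signals (also known as ectodin or wise), and had 5396, 3836 and 4254 normalized counts in telogen. It had 18016.5, 15902 and 18195 in anagen, with no overlap, and rose by a log2 fold change of 1.96 (SE 0.18, limma adjusted p = 1.05e-04). Fstl1, a follistatin-like secreted protein gene, had 1197, 1637.8 and 1920.0 normalized counts in the telogen libraries, from lowest to highest. In anagen its libraries ran from 3149.6 to 3635, all above telogen, and it rose by 1.12 on the log2 scale (SE 0.21, limma adjusted p = 0.00686). Of the 11 tested antagonists in the wider list, these 2 passed and 9 did not, among them 8 with negative values such as Nog, the noggin gene (-1.05, SE 0.62, limma adjusted p = 0.299), and Fst, the follistatin gene (-0.55, SE 0.17, limma adjusted p = 0.0632). Grem1, Nog and Fst thus had values opposite in sign to Sostdc1 and Fstl1, but only Grem1 of these 3 passed. Nog and Fst were chosen after their values were seen.

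Of the 8 tested targets other than ID genes, Msx2, a homeobox gene induced by BMP, passed. It had 469, 434 and 315 normalized counts at telogen against 151, 104 and 144 in anagen, with no overlap, and fell by 1.60 on the log2 scale (SE 0.31, limma adjusted p = 0.00806). Id4 and Msx2, both known BMP targets, therefore moved in opposite directions between the stages. The remaining 7 targets did not pass. Libraries of the 8 did not overlap for 3 that were higher in anagen (Msx1, Hey1 and Atoh8), beside 18.1% of all genes. They did not overlap for 3 that were lower (Msx2, Dlx3 and Nfatc1), beside 15.2%. At an unadjusted p under 0.05 in limma, 3 of the 8 were higher and 1 lower, beside 15.1% and 12.2%. The thresholds of the methods were met by 2 of the 8, Msx2 not being among them, beside 5.1% of all genes.

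Among 7 tested receptors and co-receptors of the wider list, Acvrl1, a type I receptor for BMP9 and BMP10 known mainly from endothelium, had 114, 180.1 and 231 normalized counts at telogen against 23.8, 50.7 and 45.8 in anagen. It fell by 2.11 on the log2 scale (SE 0.47, limma adjusted p = 0.0151), a call lost without telogen replicate 3 (limma adjusted p = 0.0561) or anagen replicate 1 (limma adjusted p = 0.0697). The 3 endothelial markers summed to 56.2 to 123 in telogen and 57.7 to 103 in anagen, with Cdh5 at 0 in every library. The other receptor genes did not pass, and the log2 fold changes were 0.15 for Bmpr2 (SE 0.19), -0.46 for Acvr2a (SE 0.22), 0.13 for Acvr2b (SE 0.68) and 1.08 for Acvr1 (SE 0.36, limma adjusted p = 0.0800). The co-receptor genes Rgma (0.93, SE 0.31, limma adjusted p = 0.0830) and Rgmb (0.42, SE 0.22) did not pass either. Of the Smads that carry the signal, Smad1 (-0.01, SE 0.23), Smad5 (0.20, SE 0.18) and Smad4 (0.17, SE 0.22) had values near 0, and Smad9 had -0.88 (SE 0.30, limma adjusted p = 0.0847). None of the 6 intracellular inhibitors, 3 ligands and 3 E protein genes of the wider list that could be tested passed.

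The comparison of Eed iKO with control asks whether loss of PRC2 in resting HFSCs alters these genes. No member passed in limma (0 of 10, adjusted p under 0.05), and 0.0267% of the 15008 genes tested did, 4 genes in all (0.02% higher and 0.00666% lower in Eed iKO). At an unadjusted p under 0.05, 3 members passed, Id1, Id2 and Id3, all higher in Eed iKO, beside 14.7% of all genes, of which those higher in Eed iKO made up 8.38% of genes tested. On recovered reads, DESeq2 called Id1 alone among the members, beside 5.31% of 12665 genes (3.51% higher), and edgeR called none, beside 0.0333% of genes. With a fold change of at least 1.5 required beside the DESeq2 adjusted p, Id1 still passed alone, beside 4.6% of genes. Limma with a block on replicate number called 3 members, Id1, Id2 and Id3, beside 2.83% of genes. The median log2 fold change of the 10 members was 0.42 in limma, beside 0.00 over all genes. No member met the thresholds of the study's methods (log2 fold change beyond 1.5 and unadjusted p under 0.05), which 1.75% of genes met.

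**Figure D3:**
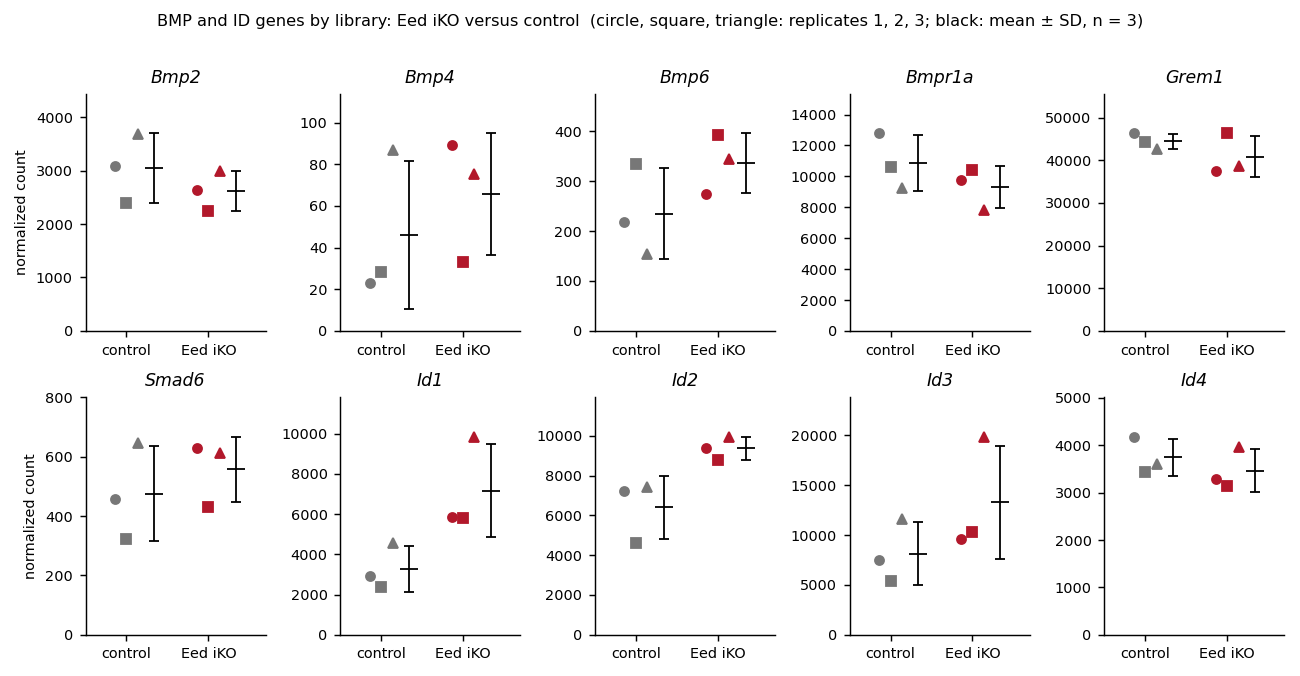
Normalized counts (y axis, linear from 0) of the 10 members in each control (grey) and Eed iKO (red) library, with the mean ± SD of 3 libraries in black. Id1 and Id2 are the members whose groups do not overlap, and the third replicate (triangle) is the highest Id1 and Id3 library of each group.

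Id1, the member with the largest value in this comparison, had 2909, 2357 and 4564 normalized counts in the control libraries. It had 5861, 5822 and 9843 in the Eed iKO libraries. Every Eed iKO library was above every control library, and replicate 3 was the highest of each group. The log2 fold change was 1.14 (SE 0.26, 95% interval 0.56 to 1.72), a fold of 2.21 (1.47 to 3.30), with a limma adjusted p = 0.107. DESeq2 gave a log2 fold change of 1.13 with an adjusted p = 0.00289, and edgeR an adjusted p = 0.121. The DESeq2 call was lost without control replicate 2 (0.94, DESeq2 adjusted p = 0.0591) and kept without any other single library.

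Id2 had 7217, 4588 and 7429 normalized counts in the controls and 9384, 8798 and 9944 in Eed iKO. Its groups did not overlap either, beside 10.2% of all genes in the same direction and 20.2% in either, with a log2 fold change of 0.58 (SE 0.19, 95% interval 0.17 to 0.99, limma adjusted p = 0.187). Id3 had 7469, 5377 and 11567 normalized counts in the controls and 9627, 10339 and 19842 in Eed iKO. Control replicate 3 lay above Eed iKO replicates 1 and 2, and the log2 fold change was 0.70 (SE 0.31, limma adjusted p = 0.325). DESeq2 called neither on all libraries (adjusted p = 0.0939 for Id2 and 0.166 for Id3). It called both without control replicate 3 (adjusted p = 0.0457 for Id2 and 0.0249 for Id3) and neither without any other single library. Id3 fell to 0.29 without Eed iKO replicate 3 (DESeq2 adjusted p = 0.609), and Id2 to 0.35 without control replicate 2 (DESeq2 adjusted p = 0.212). Id4 had 4177, 3445 and 3609 normalized counts in the controls and 3293, 3133 and 3972 in Eed iKO, which overlapped (log2 fold change -0.11, 95% interval -0.45 to 0.23, limma adjusted p = 0.778).

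Control replicate 3 and Eed iKO replicate 3, the highest libraries for Id1 and Id3 in their groups, were also the highest for the 10 immediate early genes. The summed normalized counts of these genes were 704321, 722455 and 1493388 in the controls and 626495, 836386 and 1402450 in Eed iKO. These sums overlapped between the groups, none of the 10 genes was called, and their part in the spread of Id1 and Id3 was not tested. From lowest to highest library, the 4 proliferation genes summed to 1231, 1345 and 3563 normalized counts in the controls. In Eed iKO they summed to 931, 9523 and 9833, so the groups overlapped. The median log2 fold change of these 4 genes was 1.38, and none was called. The 5 immune markers summed to 147 to 344 in the controls and 192 to 544 in Eed iKO, with Cd207 and Lyz2 at 0 in all controls. The part of the proliferation and immune markers in the ID values was not tested.

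The composition of ID transcripts within a library does not depend on a size factor that all its genes share. Whether the hair cycle values had such a single factor is not settled. Per kb, Id1 made up 19.1%, 21.5% and 22.2% of the 4 ID genes in the controls and 27.8%, 27.3% and 28.2% in Eed iKO, without overlap. The share of Id4 was 8.28%, 9.46% and 5.30% in the controls and 4.70%, 4.43% and 3.43% in Eed iKO, also without overlap, while the shares of Id2 and Id3 overlapped. Between hair cycle stages, the share of Id1 was 15.3%, 14.2% and 7.16% in telogen and 5.08%, 6.08% and 5.47% in anagen, without overlap. The share of Id2 did not overlap either (26.4% to 31.5% in telogen and 18.2% to 23.4% in anagen), and that of Id4, with 20.4% to 33.7% in telogen and 30.9% to 41.8% in anagen, did. A share moves when any of the 4 genes moves, and no test was made of it.

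**Figure D4:**
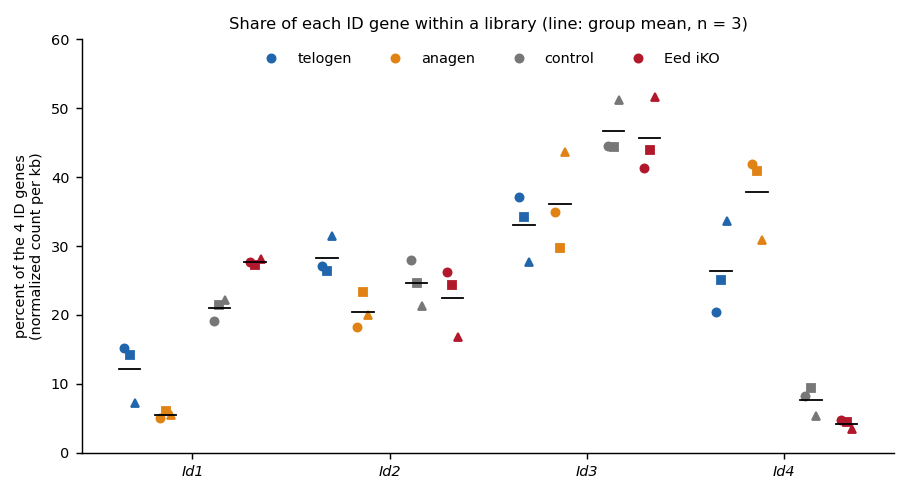
Share of each ID gene in the sum of the 4 ID genes (y axis, percent of normalized counts per kb) in each library, with the line at the mean of 3 libraries and circle, square and triangle for replicates 1, 2 and 3. The Id1 share is 27.3% to 28.2% in Eed iKO and 19.1% to 22.2% in control, and 5.08% to 6.08% in anagen.

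The upstream and inhibitory members overlapped between control and Eed iKO. Bmp2 had 3083, 2385 and 3685 normalized counts in the controls and 2634, 2244 and 2987 in Eed iKO (log2 fold change -0.21, 95% interval -0.63 to 0.22). Bmp6 had 218, 334 and 153 in the controls and 273, 392 and 344 in Eed iKO (0.57, 95% interval -0.25 to 1.40). Bmp4 had 22.9, 28.2 and 87.0 in the controls and 89.2, 33.2 and 75.1 in Eed iKO, where the spread within groups left a 95% interval of -0.91 to 2.20.

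Bmpr1a had 12800.3, 10594 and 9232 normalized counts in the controls and 9769.7, 10408 and 7800.3 in Eed iKO (log2 fold change -0.22, 95% interval -0.58 to 0.14). Grem1 had 46330.2, 44192 and 42681 in the controls and 37493, 46351 and 38548 in Eed iKO. The highest Grem1 value was in an Eed iKO library, and the log2 fold change of -0.13 had a 95% interval of -0.44 to 0.19. Smad6 had 459, 324 and 645 normalized counts in the controls and 629, 432 and 612 in Eed iKO (0.26, 95% interval -0.43 to 0.96). The 7 dermal papilla and fibroblast markers summed to 503 to 987 in the controls and 270 to 451 in Eed iKO, without overlap. None of the 4 tested genes was called. Adipocyte markers were low and did not overlap in sum either, at 37.9 to 68.7 in the controls and 21.7 to 34.4 in Eed iKO. Sums of the other marker lists overlapped. Of the 8 bulge markers, 5 had groups that did not overlap, beside 20.2% of all genes in either direction, and none was called. The part of these markers in the values of the members was not tested.

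**Figure D5:**
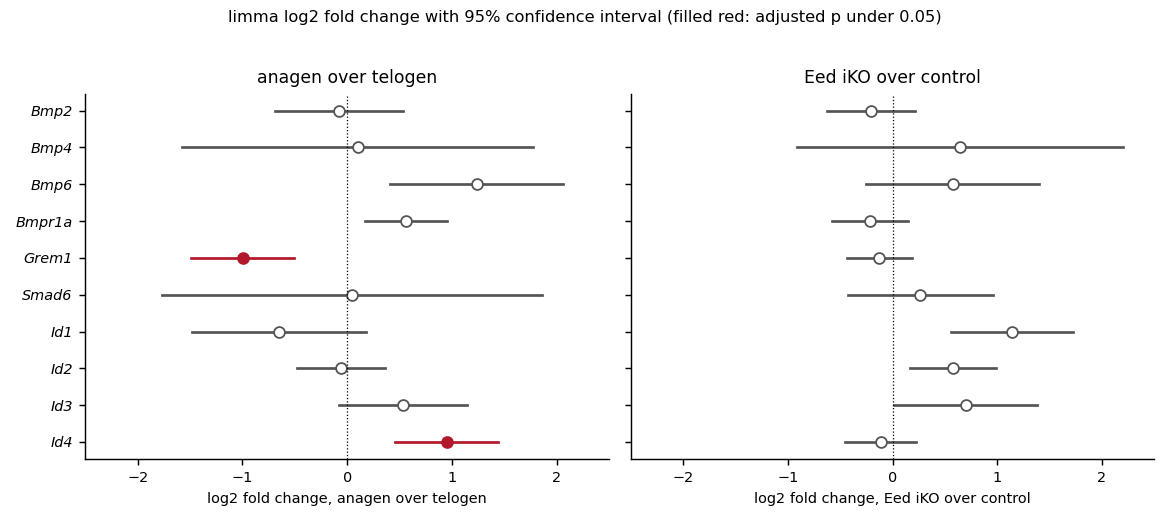
Log2 fold change with its 95% confidence interval for each member (rows) in the hair cycle comparison (left, anagen over telogen) and in the Eed comparison (right, Eed iKO over control), with filled red points for limma adjusted p under 0.05. Id4 (0.95) and Grem1 (-1.00) are filled on the left and none on the right, where Id1 (1.14), Id2 (0.58) and Id3 (0.70) have intervals above 0.

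Set side by side, the hair cycle and Eed iKO comparisons share no libraries, and the difference between them was not tested. Id1 had a log2 fold change of -0.65 in anagen over telogen and 1.14 in Eed iKO over control. Id4 had 0.95 and -0.11, and Grem1 had -1.00 and -0.13.

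Of the 57 genes of the wider list, 50 were listed for the Eed iKO comparison and 44 could be tested. None was called by limma, beside 0.0267% of all genes. At an unadjusted p under 0.05, 1 was higher and 8 were lower, beside 8.38% and 6.33% of all genes. DESeq2 called 1, which was lower, as were 1.81% of genes, and edgeR called none, beside 0.0333%. The median log2 fold change of the 44 was -0.12, beside 0.00 over all genes. The gene called by DESeq2 was Dlx3, a homeobox gene that BMP induces in the hair shaft lineage and which is named after its values were seen. It had 4080.1, 3452 and 4965 normalized counts in the controls and 2145, 1586 and 2356 in Eed iKO, without overlap (log2 fold change -1.04, SE 0.20, limma adjusted p = 0.0899, DESeq2 adjusted p = 3.57e-04), and it also met the fold change of at least 1.5.

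None of the receptor and Smad genes of the wider list passed in this comparison. Bmpr2 had a log2 fold change of -0.25 (SE 0.13), Acvr2a -0.50 (SE 0.19), Acvr2b -0.50 (SE 0.22), Acvr1 0.05 (SE 0.20) and Acvrl1 0.27 (SE 0.28). For the co-receptor genes Rgma, Rgmb and Eng the values were -0.25 (SE 0.15), 0.25 (SE 0.15) and -1.27 (SE 0.90). Smad1 had -0.01 (SE 0.16), Smad4 -0.16 (SE 0.16), Smad5 0.27 (SE 0.14) and Smad9 -0.12 (SE 0.15). Sostdc1, which rose in anagen, had 19750.3 ± 154 normalized counts in the controls and 18434 ± 2276 in Eed iKO (SD, n = 3), with log2 fold change -0.11 (SE 0.14, limma adjusted p = 0.764).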

How the data were processed

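Total RNA of sorted HFSCs was amplified, sequenced as paired-end reads and, per the labels and the methods of the study, aligned to mouse Gencode transcripts (vM20) with kallisto (0.42.5). The authors analysed protein-coding genes with DESeq2 and deposited 1 signal per gene and library, taken here as the count divided by the DESeq2 size factor. Fold changes and p-values in the same tables are the comparisons of the authors and were not used.

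Both tables hold normalized values, so limma (3.58.1, R 4.3.3) with an intensity trend was fitted to log2(value + 1), each table alone, over genes passing filterByExpr at a count minimum of 10, with Benjamini-Hochberg adjustment over all of them and a threshold of 0.05. A fold change on this scale understates that of low genes. For Eed iKO and control, 100% of values were integer multiples of a library's own step (tolerance 0.05 of a step), so reads were recovered and DESeq2 (1.42.0) and edgeR (4.0.16) were run on them as alternatives, 673 and 5 genes being called. For the hair cycle this held for only 9.55% to 17.8% of values. Fits were tested on simulated data with planted changes larger than that of any member, so power at the sizes seen here was not measured. Groups and replicate numbers came from the labels. The members and the gene lists were chosen with earlier results of these data known. Named genes were the members, called genes of the wider list, its receptors and Smads that passed the filter, and the 3 genes most like the called member with the largest change. Promoter windows are from RefSeq (GRCm38.p6), and transcript lengths and exon overlaps from GENCODE vM21 (GRCm38). Alternatives were another pseudocount (0.1), no filter, TMM scaling, no trend, a replicate block, the thresholds of the methods and each library left out. Leaving out each library in the DESeq2 fit, and adding a fold change of at least 1.5 to it as in a legend of the study, were chosen after seeing the data.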

Additional observations from a re-analysis of the deposited data

How the results depend on the processing

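Each comparison rests on 3 libraries per group, and the hair cycle values carry no read depth. Of 344 refits of single genes, 313 kept their direction and side of the threshold, 13 newly passed, 10 no longer passed and 8 changed sign. The sign changes were all in the hair cycle comparison with a library left out, where Bmp2 ran from -0.19 to 0.046, Bmp4 from -0.42 to 0.55 and Smad6 from -0.40 to 0.77 on the log2 scale. Of the called members, the 2 in the hair cycle became 0 without an intensity trend (limma adjusted p = 0.103 for Id4 and 0.0955 for Grem1), 0 under the thresholds of the methods, and 0 to 3 with a library left out. The 4 called genes of the wider list there became 3 to 7 with a library left out (7 without telogen replicate 1). In the Eed iKO comparison, the members called (0) became 1 with DESeq2, 1 with DESeq2 and a fold change of at least 1.5, and 0 to 3 with DESeq2 and a library left out. Those of the wider list (0) became 1 with DESeq2, 1 with that fold change added, and 1 to 3 with DESeq2 and a library left out. With limma, those of the wider list became 0 to 1 with a library left out (1 without Eed iKO replicate 3) and 1 under the thresholds of the methods. Beside these, 0.939% to 7.18% of all genes were called by DESeq2 with a library left out, and 1.75% under the thresholds of the methods. Deviations of same-numbered libraries of the 2 groups correlated at 0.04, 0.07 and 0.19 in the Eed iKO table. In the hair cycle table they correlated at -0.03, -0.07 and -0.03. Libraries of different number ran from -0.145 to 0.077 in the Eed iKO table and from -0.017 to 0.055 in the hair cycle table. The 0.19 of replicate 3 in the Eed iKO table stood above all of these. The labels give replicate numbers only, so the main fits used no pairing, and whether the Eed iKO libraries are paired is not settled. Blocking on replicate number, 424 genes (2.83% of those tested) in place of 4 were called in the Eed iKO comparison, among them 3 members (Id1, Id2 and Id3, limma adjusted p = 0.00146, 0.0456 and 0.0178) and 1 gene of the wider list (Dlx3, 0.00301). In the hair cycle comparison 1224 in place of 1556 genes were called with that block, which left 2 members called. Over all genes, DESeq2 called 673, limma without a trend 2 and limma without Eed iKO replicate 3 203 genes in the Eed iKO comparison, and limma called 842 without a trend and 597 to 1529 with a library left out in the hair cycle comparison. The cause of these differences was not tested.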
